A study of Ovis aries with 42 samples.

Results

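Normal maturation of the sheep fetal liver was followed in 10 wild-type (WT) liver RNA-seq libraries, 2 at each of gestation days 50, 65, 80, 100 and 120 (d50 to d120), out of 42 libraries in the series. The 4 libraries of d100 and d120, called late, were compared with the 4 libraries of d50 and d65, called early, and the 2 libraries of d80 served as a midpoint. Libraries were chosen by the genotype and gestation day in the labels, not by any measured value. The series compares WT sheep with sheep that lack CFTR, the anion channel of epithelia whose loss causes cystic fibrosis (CF), in liver and gallbladder. The 8 CF liver libraries of d50, d65, d100 and d120, 2 a day, were used to ask whether the same maturation was measured there. Values of 2 WT livers from the end of gestation (term), 1 female and 1 male, are given beside some genes and were not part of the late group. The RNA came from homogenised pieces of frozen liver tissue that holds many cell types, in which fewer cells of a type and less RNA per cell cannot be told apart. The labels give each library a donor number but do not say whether these fetuses were littermates.

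The fetal liver has 2 roles. It is the main site of blood formation through mid gestation, before the bone marrow takes over, and hosts erythroid cells, megakaryocytes and their progenitors among the hepatocytes. Hepatocytes meanwhile change from fetal secretory cells that make alpha-fetoprotein (AFP) into cells that make glucose, take up bile acids, detoxify steroids and drugs, and supply the complement and clotting factors of plasma. Many of the enzymes of the adult organ are switched on only around birth.

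Depth was similar across days. The 10 WT fetal libraries held 37720448 to 56808639 estimated counts, 15355 to 16130 genes with a value above 0, and TMM scaling factors of 0.818 to 1.21. Rank correlations across genes ran from 0.965 to 0.985 between libraries of 1 day and from 0.94 to 0.985 over all pairs. The first principal component of the 1000 most variable genes, with 33.1% of their variance, placed the libraries nearly in order of age. Its positions were -50.6 and -35.5 at d50, -29.2 and -0.012 at d65, 1.5 and -0.492 at d80, 20 and 19.2 at d100, and 30.7 and 44.6 at d120. Replicate 2 of d65 stood with the d80 libraries rather than with the other d65 library, and its donor number is also on a CF d100 liver library in the labels. Late libraries carry only 2 donor-number stems, 1 a day, and early libraries carry 3. Every library held hepatocyte transcripts at high levels, and albumin (ALB) stood at 64962 to 94229 CPM, a count adjusted for library size. Markers of neighbouring organs differed in level. The summed level of 20 listed pancreatic acinar genes was 8.69 to 10.9 CPM in late and 8.54 to 13.9 CPM in early libraries, and that of 20 adrenal and kidney genes was 7.55 to 14.2 CPM in late and 8.55 to 13 CPM in early libraries. The summed level of 16 listed intestine and stomach markers was higher, at 55 to 173 CPM in late and 104 to 255 CPM in early libraries and 219 and 235 CPM at d80, with overlapping groups and the lowest value in d120 replicate 2. Much of it came from the mucosal peptide TFF2 at 20.04 to 78.3 CPM in late and 11.5 to 160.3 CPM in early libraries and the peptidase ANPEP at 8.42 to 73.4 CPM in late and 32.8 to 66.6 CPM in early libraries, whereas the intestinal transcription factor CDX2 was at 0 to 0.17 CPM in late and 0 to 0.114 CPM in early libraries. Of the 12 that were tested 1 rose and 1 fell, and their part in other results was not tested.

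Past the adjusted threshold, more genes were higher than lower in late livers. Of 16507 genes tested, 653 (3.96%) passed an adjusted p of 0.05 in the quasi-likelihood test of edgeR, with p-values adjusted by Benjamini and Hochberg's method, 447 higher in late livers (2.71%) and 206 lower (1.25%). At an unadjusted p under 0.05 the numbers were even, 1467 higher and 1519 lower (1108 and 1675 with library totals in place of TMM). The median change of a raised gene was 2.53-fold and that of a lowered gene 2.61-fold, with 126 raised and 59 lowered by more than 4-fold. The 4 late libraries all lay above the 4 early ones for 363 of the 447 raised genes, and all below for 157 of the 206 lowered genes. Over all genes tested, 6.01% were separated upwards and 4.88% downwards. Each of the 4 comparisons of a late with an early day had the same sign for 437 raised and 202 lowered genes. These comparisons use the same libraries as the test that called the genes, which by itself favours a shared sign. The share over all genes tested was not computed. The counts rested on the libraries used. They were 256 and 87 without d120 replicate 2, 295 and 98 without d100 replicate 1, 273 and 101 without d100 replicate 2, 223 and 102 without d65 replicate 1, and 260 and 128 without d50 replicate 1 (raised and lowered genes). Without d65 replicate 2 they were 412 and 332, and without d120 replicate 1 they were 320 and 136. With libraries of 1 donor-number stem summed into 1 unit, no gene passed in either direction in edgeR (948 higher and 657 lower at an unadjusted p under 0.05), and with the stem as a block in limma's voom 409 were higher and 171 lower, of which 300 and 106 were called in the main test. The estimated correlation within a stem was -0.0461, so that this block could not widen the errors for shared stems.

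The 10 largest rises included secreted plasma proteins, a channel, enzymes and immune genes. Ceruloplasmin (CP), the copper-carrying ferroxidase of plasma, had 49.5 and 30.3 CPM at d100 and 119.7 and 97.1 CPM at d120, against 0.31 and 0.103 CPM at d50 and 1.19 and 3.63 CPM at d65. All late values exceeded all early ones, by far more than the libraries of 1 day differed, and d80 lay between at 10.7 and 9.45 CPM (log2 fold change 6.51 ± 0.62 SE, adjusted p = 1.24e-05). FGL1, a fibrinogen-like protein secreted by hepatocytes, had 66.2 and 54.2 CPM at d100 and 212 and 241 CPM at d120, against 0.163 and 1.16 CPM at d50 and 5.84 and 6.46 CPM at d65, with 37.2 and 30.1 CPM at d80 (log2 fold change 5.88 ± 0.45 SE, adjusted p = 1.41e-06). AQP9, the channel through which hepatocytes take up glycerol, had 21.9 and 24.98 CPM at d100 and 72.2 and 54.3 CPM at d120, against 0.114 and 0.702 CPM at d50 and 2.77 and 5.47 CPM at d65 (log2 fold change 4.92 ± 0.54 SE, adjusted p = 4.91e-05). The 3 genes were at or near 1 CPM or below at d50. PRG4, the lubricating proteoglycan lubricin, had 24.2 and 23.3 CPM at d100 and 58.4 and 48.9 CPM at d120, against 0.13 and 0 CPM at d50 and 0.347 and 0.852 CPM at d65 (log2 fold change 7.41 ± 0.87 SE, adjusted p = 8.99e-05). CYP3A28, a cytochrome P450 of the CYP3A family, had 2.63 and 2.88 CPM at d100 and 20.9 and 13.5 CPM at d120, against 0.147 and 0.145 CPM at d50 and 0.347 and 0.897 CPM at d65, a log2 fold change of 4.52, although reads of related CYP3A genes could not be told apart with certainty. Also in this leading set are G6PC, MBL2, CD5L and CR2, described further on with glucose and immune genes. UBD, a ubiquitin-like protein induced by inflammatory cytokines, completed it at 2.23 to 5.83 CPM in late and 0.0413 to 0.336 CPM in early libraries (log2 fold change 4.34).

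**Figure D1:**
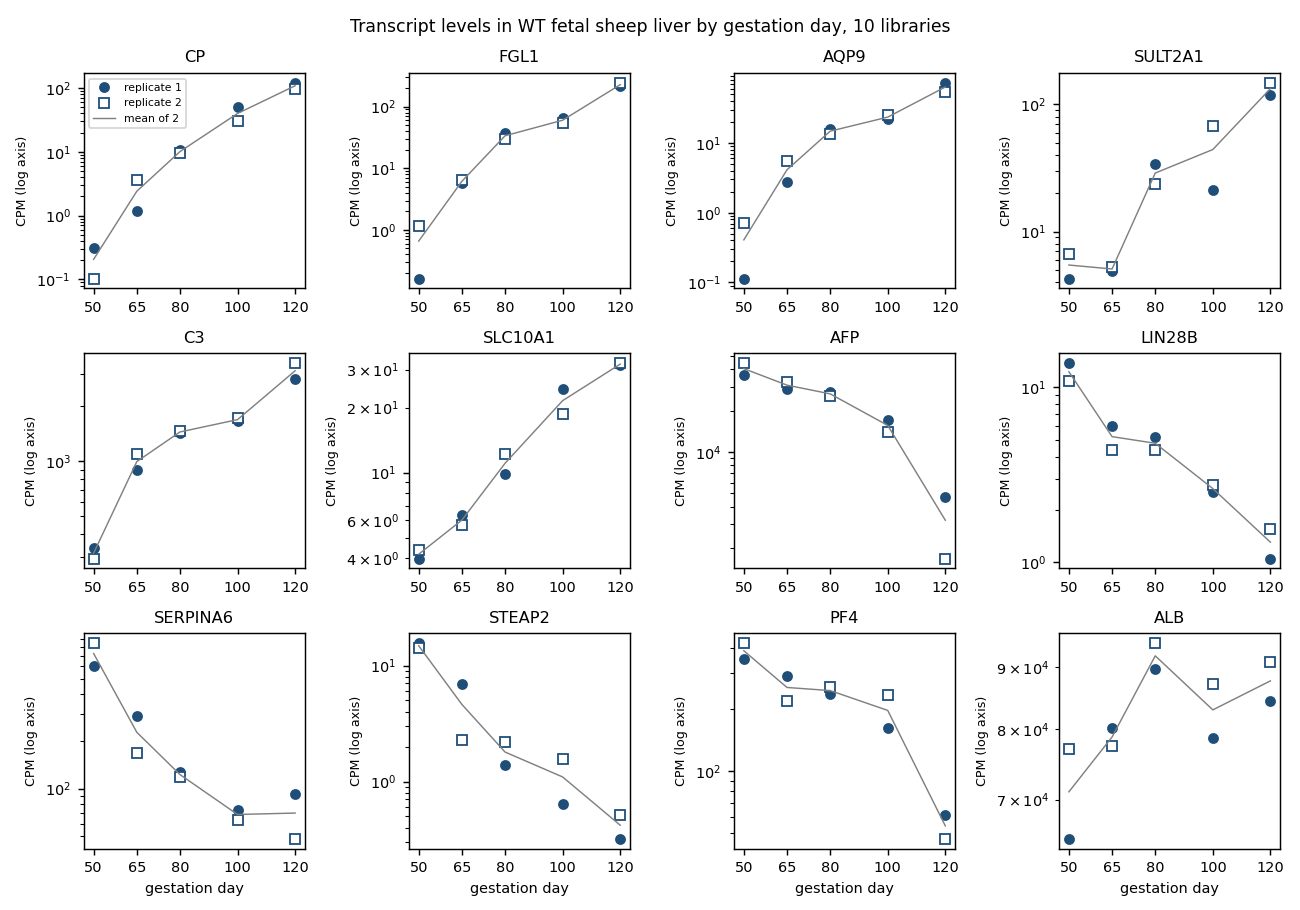
Levels of 12 transcripts in each of the 10 WT fetal liver libraries, in CPM on a log axis, against gestation day; filled circles are replicate 1, open squares replicate 2 and lines join the means of 2 libraries. CP, FGL1, AQP9, SULT2A1, C3 and SLC10A1 climbed with age, AFP, LIN28B, SERPINA6, STEAP2 and PF4 declined, and ALB stayed between 64962 and 94229 CPM.

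Among the genes with the largest decline were transporters, a calcium-binding protein and a neurofilament. S100G, the vitamin D dependent calcium-binding protein calbindin-D9k, was the most abundant of them, with 32.5 and 39.8 CPM at d100 and 3.3 and 3.33 CPM at d120, against 251 and 561 CPM at d50 and 141 and 133 CPM at d65 (log2 fold change -4.43 ± 0.71 SE, adjusted p = 0.0015). Its late and early values did not overlap, and d80 held 35.7 and 12.2 CPM. SLC28A2, a sodium-coupled nucleoside transporter, was at 0 to 0.303 CPM in late and 1.37 to 3.52 CPM in early libraries (log2 fold change -6.22). NEFH, the heavy neurofilament subunit, had 1.19 and 0.265 CPM at d100 and 0.379 and 0.18 CPM at d120, against 12.9 and 11.7 CPM at d50 and 4.65 and 4.71 CPM at d65 (log2 fold change -4.09 ± 0.62 SE, adjusted p = 0.000767). WFIKKN1, a secreted protein with protease inhibitor domains, had 0.615 and 1.23 CPM at d100 and 0.146 and 0.0799 CPM at d120, against 16.99 and 5.08 CPM at d50 and 4.32 and 4.78 CPM at d65, a log2 fold change of -4.46. STEAP2, a metalloreductase, had 0.636 and 1.55 CPM at d100 and 0.321 and 0.519 CPM at d120, against 15.6 and 14.05 CPM at d50 and 6.95 and 2.29 CPM at d65, with 1.39 and 2.19 CPM at d80 (log2 fold change -3.59 ± 0.46 SE, adjusted p = 0.00018). Its relative STEAP1 had a log2 fold change of -3.77 (adjusted p = 0.03) and lost its call without d120 replicate 1 (0.13), d120 replicate 2 (0.102), d100 replicate 1 (0.135), d100 replicate 2 (0.11), d65 replicate 1 (0.0685) or d50 replicate 1 (0.0615), with the adjusted p of each such fit in brackets. The zinc transporter SLC30A2, the keratin KRT78 and the small GTPase RAB39B fell by 4.12, 4.22 and 3.97 on the log2 scale, and each stayed past the threshold with any 1 library left out. TDGF1, the Nodal co-receptor Cripto, fell by 3.95 on the log2 scale and lost its call without d100 replicate 2 (0.0772).

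Of 20 tested genes known for fetal or tumour liver, 4 fell and 1 rose, with a median log2 change of -0.74, against -0.05 over all genes tested. AFP, the albumin relative that dominates fetal plasma, had 17154 and 14109 CPM at d100 and 4705 and 1676 CPM at d120, against 36585 and 44384 CPM at d50 and 28970.0 and 32414 CPM at d65. Late values did not overlap with early ones, the d120 pair was the lowest, and d80 held 27289.8 and 25761 CPM (log2 fold change -2.32 ± 0.45 SE, adjusted p = 0.00546). LIN28B, the RNA-binding protein that blocks let-7 maturation, had 2.5 and 2.77 CPM at d100 and 1.05 and 1.56 CPM at d120, against 13.7 and 10.7 CPM at d50 and 6.02 and 4.39 CPM at d65, again without overlap (log2 fold change -2.1 ± 0.39 SE, adjusted p = 0.00474). IGF2BP1, an RNA-binding protein of fetal tissues, fell by 1.28 on the log2 scale (adjusted p = 0.00368). IGF2BP3, of the same family, changed less (log2 fold change -0.62 ± 0.17 SE, adjusted p = 0.0482) and lost its call without d120 replicate 1 (0.101), d120 replicate 2 (0.191), d100 replicate 1 (0.159), d100 replicate 2 (0.128), d65 replicate 1 (0.246), d50 replicate 1 (0.176) or d50 replicate 2 (0.0522), the adjusted p of each fit being in brackets. DLK1, a surface protein of hepatoblasts, was higher in late livers (log2 fold change 1.08 ± 0.26 SE, adjusted p = 0.0222), and lost its call without d120 replicate 2 (0.0954), d100 replicate 2 (0.115), d65 replicate 1 (0.116) or d50 replicate 1 (0.0934). GPC3 and IGF2, markers of the fetal liver that fall after birth, were within 1373 to 1729.9 CPM in late and 1392 to 2224 CPM in early libraries and within 60.7 to 77.4 CPM in late and 41.9 to 147 CPM in early libraries, so that their groups overlapped. At term, the 2 WT libraries held 136 and 201 CPM of AFP.

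Among the gene lists, which were chosen with earlier results of these data known, complement had the most members raised. Of 24 components tested, 17 rose, none fell and 22 had a positive change, with a median log2 change of 1.32. Of all genes tested, 2.71% rose. The count stayed between 14 and 17 when any 1 library was left out, but other designs lowered it. It was 8 with 8 libraries and 1 mean per side, and 0 with 1 unit per donor-number stem. Between d100 and d65 alone it was 0, with a median log2 change of 0.507. The summed level was 5740.0 to 9220.0 CPM in late and 1590.0 to 4090.0 CPM in early libraries. C3, the central component cleaved by all activation routes, had 1661 and 1719 CPM at d100 and 2809 and 3439 CPM at d120, against 336 and 294 CPM at d50 and 895 and 1099.8 CPM at d65, with 1429 and 1466 CPM at d80 (log2 fold change 2.04 ± 0.21 SE, adjusted p = 2.9e-05). CFB, the protease of the alternative pathway, had 1148 and 1104 CPM at d100 and 1673 and 1781 CPM at d120, against 101 and 130.2 CPM at d50 and 435 and 712 CPM at d65 (log2 fold change 2.44 ± 0.25 SE, adjusted p = 2.59e-05). C2, its counterpart in the classical and lectin pathways, was separated in the same way (log2 fold change 2.29, adjusted p = 7.76e-06). In each of the 3 the late libraries all exceeded the early ones. MBL2, the mannose-binding lectin that starts the lectin pathway, had the largest fold change of the group, with 3.71 and 18.1 CPM at d100 and 64.9 and 22.2 CPM at d120, against 0.896 and 0.475 CPM at d50 and 0.0365 and 2.02 CPM at d65 (log2 fold change 4.71 ± 0.83 SE, adjusted p = 0.00275), and most of its level was in the d120 pair. The early classical components C1R and C1S rose by 1.63 and 1.38 on the log2 scale, and C4A by 2.09, with the caution that the C4 genes are near copies. Among the terminal components that form the membrane pore, C6, C7, C9 and C5 rose by 3.25, 2.90, 2.07 and 1.06, whereas C8A and C8B had log2 changes of 0.34 and 0.35 and did not pass. CFHR2, a plasma protein outside the list and named for its small p, had 103 and 103 CPM at d100 and 169 and 139 CPM at d120, against 2.53 and 3.02 CPM at d50 and 27.9 and 53.3 CPM at d65 (log2 fold change 3.57 ± 0.23 SE, adjusted p = 1.22e-07). MASP1 and FCN3 did not pass, and FCN3 was at or near 0 throughout (0 to 0.127 CPM in late and 0 to 0.124 CPM in early libraries).

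**Figure D2:**
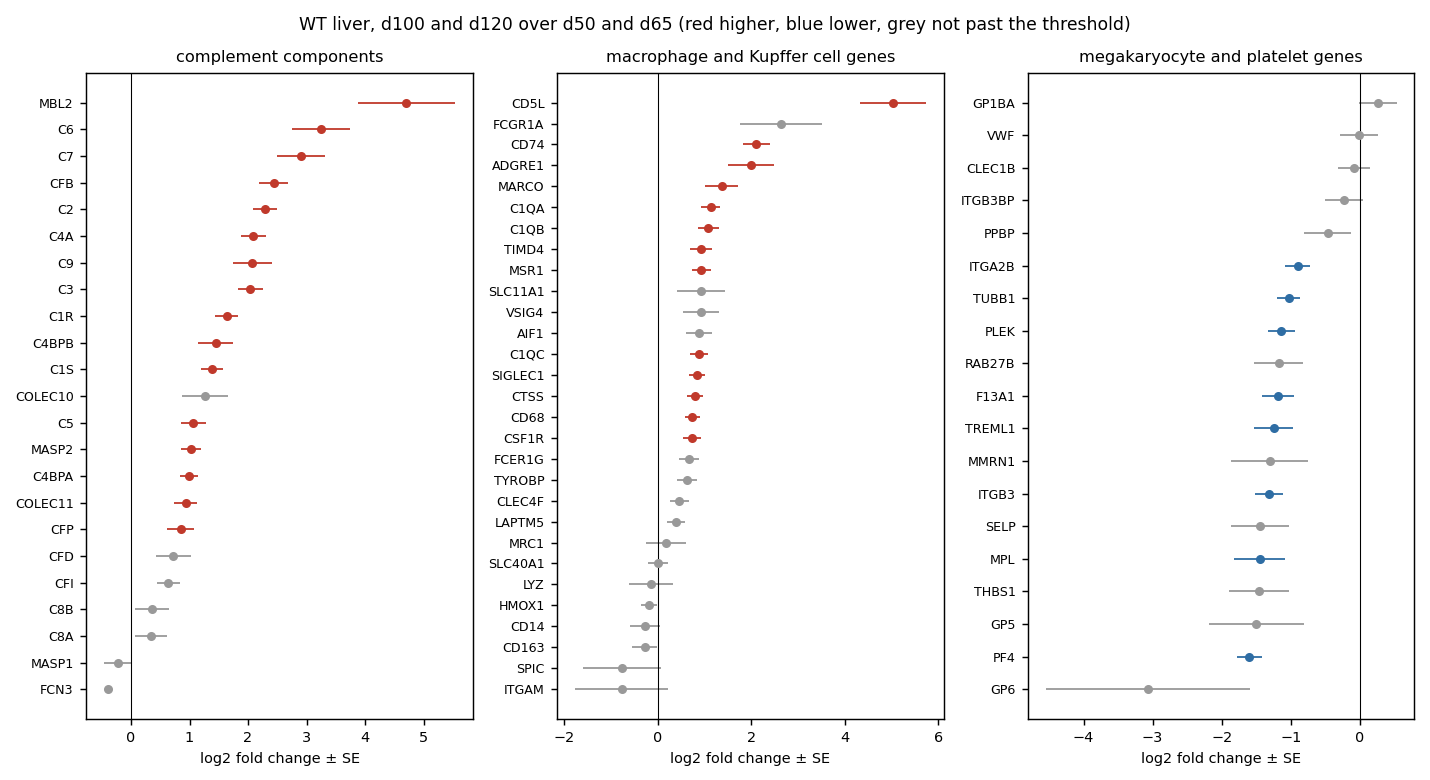
Log2 fold change of late over early WT livers (x axis, ± SE) for tested members of the complement, macrophage and megakaryocyte lists (1 raised complement gene is not drawn), red where higher and blue where lower past an adjusted p of 0.05, and grey otherwise. FCN3, near 0 in all libraries, has no error bar; 17 of 24 complement and 13 of 29 macrophage genes were higher and 8 of 19 megakaryocyte genes were lower.

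Clotting factors and other plasma proteins moved less evenly. Of 27 coagulation and fibrinolysis genes, 5 rose and none fell, and 26 had a positive change. Fibrinogen gamma (FGG) had 4084 and 4244 CPM at d100 and 5981 and 5776 CPM at d120, against 1925 and 1746 CPM at d50 and 2841 and 2384 CPM at d65 (log2 fold change 1.18 ± 0.21 SE, adjusted p = 0.00323), and factor VIII (F8), a product of sinusoidal endothelium, was at 9.97 to 15.7 CPM in late and 3.47 to 5.45 CPM in early libraries (log2 fold change 1.48 ± 0.30 SE, adjusted p = 0.00708). The other 3 calls, FGA, FGB and KLKB1, each missed the threshold whichever library was left out, so that 2 of 27 passed in all 8 such fits. Of 21 acute phase genes, 5 rose. The inhibitor heavy chain ITIH4 had 562 and 487 CPM at d100 and 1037 and 1544 CPM at d120, against 167 and 141 CPM at d50 and 261 and 274 CPM at d65 (log2 fold change 2.02 ± 0.21 SE, adjusted p = 3.49e-05), with no overlap, and C-reactive protein (CRP) was at 80.7 to 213 CPM in late and 41.5 to 52.03 CPM in early libraries (log2 fold change 1.5, adjusted p = 0.00112). Haptoglobin (HP) and LCN2 rose by 1.55 and 1.24 on the log2 scale and missed the threshold whichever library was left out, at adjusted p-values of up to 0.135 for HP and 0.15 for LCN2 without d50 replicate 1. A serum amyloid A gene listed as SAA, which has near copies, was at 35.8 to 125 CPM in late and 1.03 to 18.7 CPM in early libraries (log2 fold change 3.49 ± 0.46 SE, adjusted p = 0.000218). The bulk carriers of plasma were at similar levels. ALB averaged 85367 ± 5149 CPM in late and 74937 ± 6796 CPM in early libraries (SD, n = 4 each), and the fetuin AHSG averaged 83644 ± 8831 CPM in late and 73054 ± 7077 CPM in early libraries (SD, n = 4 each). Their log2 differences of 0.19 ± 0.40 and 0.2 ± 0.38 SE did not pass, and neither did transferrin (TF, -0.04 ± 0.36). SERPINA6, which encodes corticosteroid-binding globulin, fell, with 73.5 and 63.5 CPM at d100 and 91.9 and 48.03 CPM at d120, against 606 and 839.7 CPM at d50 and 288 and 168 CPM at d65, and 127 and 118 CPM at d80 (log2 fold change -2.55 ± 0.37 SE, adjusted p = 0.000546). At term it stood at 15.3 and 28.02 CPM.

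Glucose genes changed in both directions. G6PC, the catalytic subunit that releases free glucose from glucose 6-phosphate, had 12.7 and 6.02 CPM at d100 and 14.3 and 15.03 CPM at d120, against 0.749 and 0.475 CPM at d50 and 0.0365 and 0.605 CPM at d65, with 4.42 and 5.35 CPM at d80 (log2 fold change 4.75 ± 0.71 SE, adjusted p = 0.000767). The late and early groups did not overlap. GYS2, the liver glycogen synthase, was at 45.9 to 114 CPM in late and 16.1 to 26.6 CPM in early libraries (log2 fold change 1.54 ± 0.25 SE, adjusted p = 0.00135), and the fructose bisphosphatase FBP2 at 3.88 to 10.7 CPM in late and 0.978 to 2.69 CPM in early libraries (log2 fold change 1.9, adjusted p = 0.00588). PCK1, the cytosolic enzyme that commits carbon to gluconeogenesis, had 8.25 and 6.38 CPM at d100 and 17.2 and 11.7 CPM at d120, against 2.62 and 1.92 CPM at d50 and 0.766 and 1.55 CPM at d65. Its late libraries all exceeded the early ones, but it did not pass (log2 fold change 2.67 ± 0.89 SE, adjusted p = 0.109), and it reached 852 and 762 CPM at term. TKFC, a triokinase of fructose metabolism, fell by 1.09 on the log2 scale (adjusted p = 0.00342). The mitochondrial PCK2 fell by 0.93 and lost its call without d120 replicate 2 (0.0531) or d100 replicate 2 (0.0538). In all, 3 of 30 gluconeogenesis and glycogen genes rose and 2 fell.

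Nitrogen metabolism changed at a few steps. Of 12 urea cycle and ammonia genes 2 rose. Arginase (ARG1), the last enzyme of the cycle, had 967 and 961 CPM at d100 and 1184 and 1421 CPM at d120, against 339 and 342 CPM at d50 and 697 and 546 CPM at d65 (log2 fold change 1.28 ± 0.24 SE, adjusted p = 0.00364), and the liver glutaminase GLS2 was at 37.9 to 43.7 CPM in late and 14.3 to 16.7 CPM in early libraries (log2 fold change 1.35 ± 0.27 SE, adjusted p = 0.00595). CPS1 and OTC, the first enzymes of the cycle, had log2 changes of 0.13 ± 0.18 and 0.05 ± 0.29 SE. Among 41 genes of amino acid breakdown 3 rose and 1 fell. TDO2, which opens the breakdown of tryptophan, had 88.05 and 108 CPM at d100 and 222 and 277 CPM at d120, against 60.7 and 44.3 CPM at d50 and 24.1 and 37.7 CPM at d65 (log2 fold change 1.96 ± 0.20 SE, adjusted p = 2.53e-05), and sarcosine dehydrogenase (SARDH) rose by 1.83 on the log2 scale (adjusted p = 0.00668). The other raised gene, HAO1 (1.19), lost its call without d120 replicate 2 (0.101), d100 replicate 1 (0.0663), d100 replicate 2 (0.0612), d65 replicate 1 (0.112) or d50 replicate 1 (0.105).

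Over 4 lists of lipid metabolism 4 of 108 genes were called, 3.7%, near the 3.96% of all genes tested. None of 26 cholesterol genes passed in edgeR, none of 32 genes of fatty acid oxidation rose and 2 fell, and of 28 genes of fatty acid synthesis and storage 1 fell. The fatty acid synthase FASN was at 16.4 to 21.3 CPM in late and 13.6 to 73.6 CPM in early libraries, with overlapping groups. SLC25A20, the carnitine carrier of the mitochondrial membrane, fell by 1.12 on the log2 scale (adjusted p = 0.00684). The other fallen genes, BDH1 (-1.17) and ACACA (-0.89), lost their calls in most fits with 1 library left out. For BDH1 these were d120 replicate 1 (0.0886), d120 replicate 2 (0.0937), d100 replicate 1 (0.109), d100 replicate 2 (0.0717), d65 replicate 1 (0.0579), d65 replicate 2 (0.0501) or d50 replicate 2 (0.0985), and for ACACA d120 replicate 2 (0.168), d100 replicate 1 (0.0798), d100 replicate 2 (0.126), d65 replicate 1 (0.146) or d50 replicate 1 (0.199), each with its adjusted p. ANGPTL8, a secreted inhibitor of lipoprotein lipase, was the 1 apolipoprotein and lipoprotein gene of 22 to rise, with 2.48 and 2.12 CPM at d100 and 3.62 and 2.68 CPM at d120, against 0.13 and 0.227 CPM at d50 and 0.274 and 0.381 CPM at d65 (log2 fold change 3.48 ± 0.60 SE, adjusted p = 0.00273). The main structural apolipoproteins APOA1 and APOB had log2 changes of 0.19 ± 0.37 and -0.12 ± 0.16 SE.

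Some importers at the blood side of the hepatocyte rose. SLC10A1, the sodium-dependent bile acid importer NTCP, had 24.4 and 18.7 CPM at d100 and 31.5 and 32.2 CPM at d120, against 3.99 and 4.38 CPM at d50 and 6.33 and 5.72 CPM at d65, with 9.9 and 12.2 CPM at d80 and 142 and 266 CPM at term (log2 fold change 2.38 ± 0.34 SE, adjusted p = 0.000497). The late and early libraries were fully separated and the 2 of each day lay close together. The organic anion carriers SLCO2B1 and SLC22A9 rose by 1.37 and 1.45 on the log2 scale (adjusted p = 0.00288 and 0.00759). SLCO1B3, of the same transporter class, fell by 1.31 and lost its call without d120 replicate 1 (0.101), d100 replicate 1 (0.0794), d100 replicate 2 (0.0842), d65 replicate 1 (0.154) or d50 replicate 1 (0.0859). The bile salt export pump ABCB11 was at 167 to 197 CPM in late and 105 to 132 CPM in early libraries and did not pass (log2 fold change 0.63 ± 0.18 SE, adjusted p = 0.0632). In all, 4 of 28 transporter genes rose and 1 fell. CYP7A1, which limits the rate of bile acid synthesis, was at 0.0189 to 1.42 CPM in late and 0 to 0.0912 CPM in early libraries. At term it stood at 193 and 141 CPM.

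Of 49 genes of phase 1 and 2 drug metabolism, 4 rose and none fell. SULT2A1, which sulfates steroids and bile acids, had 21.01 and 67.2 CPM at d100 and 119 and 147 CPM at d120, against 4.27 and 6.63 CPM at d50 and 4.85 and 5.29 CPM at d65, with 33.9 and 23.7 CPM at d80 (log2 fold change 3.87 ± 0.34 SE, adjusted p = 7.76e-06), and all late values exceeded the early ones. CYP3A24 was at 27.2 to 69.5 CPM in late and 0.682 to 25.4 CPM in early libraries (log2 fold change 3.9 ± 0.72 SE, adjusted p = 0.00362). The glucuronosyltransferase UGT2A1 rose by 1.5 (adjusted p = 0.005). UGT1A6 rose by 2.72 (adjusted p = 0.000271), but its change was -0.13 between d100 and d65 alone, and UGT1A genes share exons. Several enzymes that mark the adult liver had not risen by d120. CYP2E1 was at 2.12 to 3.86 CPM in late and 3.72 to 7.65 CPM in early libraries, and CYP3A4 at 19.3 to 30.9 CPM in late and 13.03 to 53.2 CPM in early libraries, both with overlapping groups. At term CYP2E1 stood at 5467 and 2704 CPM and CYP3A4 at 569.5 and 414 CPM.

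Among hormone-related genes, HSD11B1, which regenerates active glucocorticoid from its inert form, had 108 and 55.1 CPM at d100 and 169.6 and 194 CPM at d120, against 25.6 and 31.96 CPM at d50 and 85.1 and 67.8 CPM at d65 (log2 fold change 1.38 ± 0.23 SE, adjusted p = 0.00164). Its groups overlapped, since d100 replicate 2 lay below both d65 libraries. SERPINA6, described with the carriers, fell over the same days. Of 25 genes of steroid and thyroid hormone response, 4 rose and 1 fell; the raised count was 2 without d120 replicate 1, d100 replicate 2 or d50 replicate 2 and 1 without d120 replicate 2, d100 replicate 1, d65 replicate 1 or d50 replicate 1. Of 20 genes of the insulin-like growth factor axis 3 rose. IGFBP2, an IGF carrier of fetal plasma, had 938 and 980.0 CPM at d100 and 1127 and 1740.2 CPM at d120, against 147 and 164 CPM at d50 and 402 and 609 CPM at d65 (log2 fold change 2.07 ± 0.36 SE, adjusted p = 0.00255). IGF1 was at 2.29 to 4.19 CPM in late and 0 to 2.83 CPM in early libraries (log2 fold change 3.2 ± 0.72 SE, adjusted p = 0.0148), and lost its call without d65 replicate 1 (0.0647) or d50 replicate 2 (0.0555). Among 26 hepatocyte transcription factors 2 rose. NR1I3, the xenobiotic receptor CAR, was at 0.852 to 2.01 CPM in late and 0.062 to 0.365 CPM in early libraries (log2 fold change 3.19 ± 0.58 SE, adjusted p = 0.00345), and NFIA at 29.9 to 40.4 CPM in late and 12.8 to 18.2 CPM in early libraries (log2 fold change 1.15, adjusted p = 0.0015). HNF4A, a master regulator of hepatocyte identity, averaged 173 ± 18.8 CPM in late and 166 ± 29.2 CPM in early libraries (SD, n = 4 each). Among 24 retinoid and vitamin genes, the retinol dehydrogenase RDH16 alone passed (log2 fold change 2.38, adjusted p = 0.000156). These list counts stand beside 2.71% raised and 1.25% lowered over all genes tested, and 1 call of 24 is near that share.

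**Figure D3:**
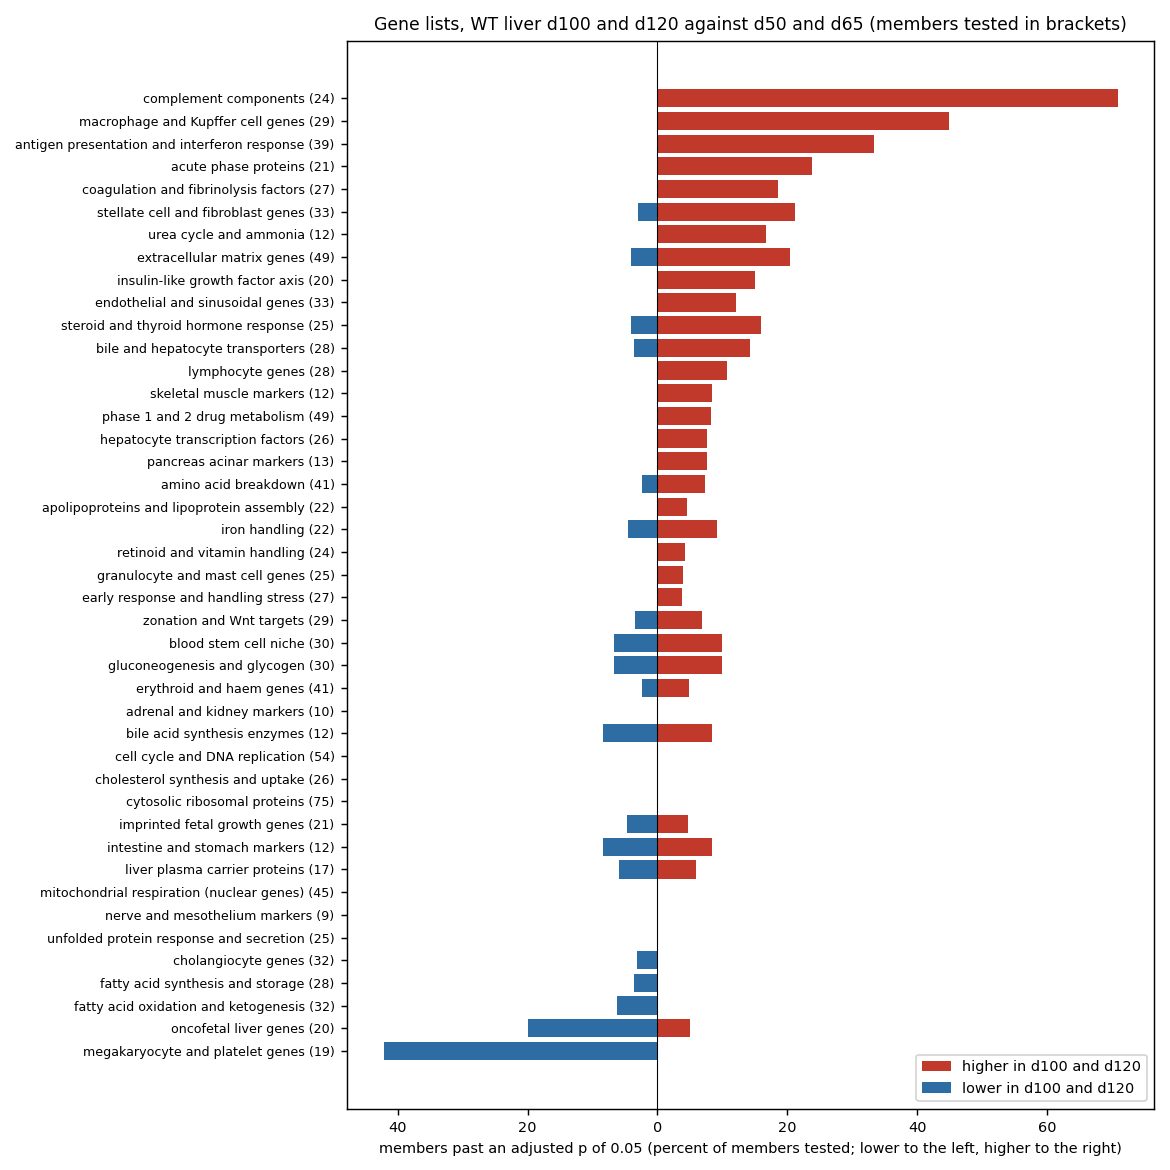
Share of tested members (x axis, percent) that were higher (red, to the right) or lower (blue, to the left) in late than in early WT livers for 43 gene lists, with the number tested in brackets. The lists were chosen with earlier results of these data known. Of all genes tested, 2.71% were higher and 1.25% lower. Complement (17 of 24 higher) and the megakaryocyte list (8 of 19 lower) are at the ends; cell cycle, cholesterol, ribosomal protein and mitochondrial lists have no bar.

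Blood-forming cells did not move together. Of 41 erythroid and haem genes 2 rose and 1 fell, against 2.71% and 1.25% of all genes tested. The summed level was 68400.0 to 119000.0 CPM in late and 51600.0 to 111000.0 CPM in early libraries, so that the groups overlapped. The called genes were CA2 and the globins HBB and HBZ, and near copies make any 1 globin gene's level uncertain. HBZ, the embryonic zeta globin, had 1.29 and 1.36 CPM at d100 and 1.02 and 0.419 CPM at d120, against 7.2 and 22.2 CPM at d50 and 2.55 and 2.96 CPM at d65, with 2.19 and 2.01 CPM at d80 (log2 fold change -2.71 ± 0.46 SE, adjusted p = 0.00238). The table's HBB, a beta globin gene, had 2008 and 1061 CPM at d100 and 18915 and 5244 CPM at d120, against 34.9 and 254 CPM at d50 and 100.3 and 537 CPM at d65, with 906 and 426 CPM at d80 (log2 fold change 4.33 ± 0.77 SE, adjusted p = 0.00277), and its values spread widely between libraries of 1 day. The abundant HBA1 and the gene listed as HBG, given here after their values were seen, showed no such trend. HBG had 116723 and 73318 CPM at d100 and 102418 and 87149 CPM at d120, against 47528 and 132999 CPM at d50 and 73474 and 152048 CPM at d65, and HBA1 had 73644 and 57304 CPM at d100 and 85709 and 66742 CPM at d120, against 42645 and 80208 CPM at d50 and 47702 and 94346 CPM at d65. Both were lower in replicate 1 than in replicate 2 at d50 and at d65, and so was the summed level of 75 ribosomal protein genes, whose early range was 33400 to 96600 CPM. The part of this library difference in other early values was not tested. Carbonic anhydrase CA2 rose by 1.59 on the log2 scale (adjusted p = 0.00207). At term HBA1 and HBG had 46.1 and 29.2 CPM and 23.8 and 1.12 CPM, values of libraries that were not part of the late group.

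**Figure D4:**
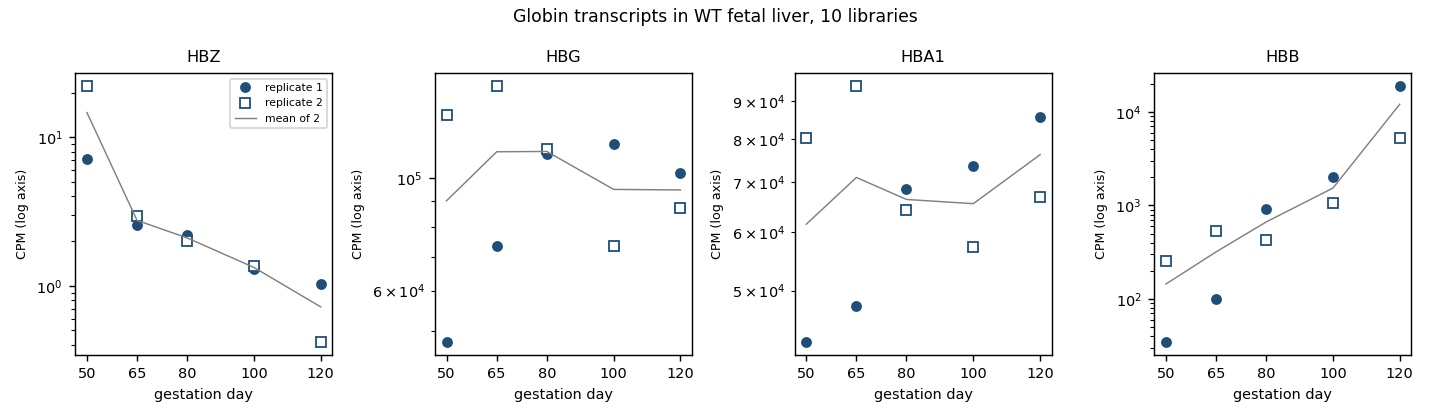
CPM (log axis) of 4 globin genes in each of the 10 WT fetal liver libraries by gestation day; filled circles are replicate 1, open squares replicate 2 and lines join the means. HBZ declined and HBB climbed with age, whereas HBG and HBA1 differed more between the 2 libraries of d50 and of d65 than between days.

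Many megakaryocyte and platelet genes fell. Of 19 tested, 8 fell, none rose and 1 had a positive change, with a median log2 change of -1.19. The count was 5 without d120 replicate 2 and 5 without d100 replicate 1, and 11 at the most. Platelet factor 4 (PF4) had 162 and 234 CPM at d100 and 61.6 and 47.04 CPM at d120, against 353 and 419.9 CPM at d50 and 291 and 221 CPM at d65, with 239 and 256 CPM at d80 (log2 fold change -1.6 ± 0.18 SE, adjusted p = 4.99e-05). The low values were those of d120, and d100 replicate 2 lay above d65 replicate 2. The integrin subunit ITGB3 of the fibrinogen receptor had 54.8 and 69.2 CPM at d100 and 19.1 and 12.4 CPM at d120, against 83.96 and 86.2 CPM at d50 and 80.9 and 61.6 CPM at d65 (log2 fold change -1.32 ± 0.20 SE, adjusted p = 0.000848), with the same drop at d120. The platelet tubulin TUBB1 and PLEK, a kinase substrate of platelets, fell by 1.03 and 1.14 on the log2 scale (adjusted p = 0.00125 and 0.00183). F13A1, a clotting factor subunit stored in platelets, fell by 1.19 and lost its call without d65 replicate 1 (0.0504). Between d100 and d65 alone no member passed and the median was -0.23, against 7 members and -1.86 between d120 and d65. VWF, which endothelium shares, had a log2 change of -0.01 ± 0.28 SE.

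Of 25 granulocyte and mast cell genes, 21 had a positive change but only LTF passed, where 2.71% of all genes tested rose. Their summed level was highest at d100, at 456 and 516 CPM, and was 218 and 166 CPM at d120. Earlier it was 106 and 128 CPM at d50, 230 and 254 CPM at d65, and 366 and 287 CPM at d80. The late group thus joins a high and a lower day. LTF (log2 fold change 1.27 ± 0.32 SE, adjusted p = 0.0298) lost its call without d120 replicate 1 (0.129), d100 replicate 1 (0.05), d100 replicate 2 (0.119), d65 replicate 1 (0.0606), d65 replicate 2 (0.0812) or d50 replicate 1 (0.12). Of 30 genes of the blood stem cell niche 3 rose and 2 fell. With any 1 library left out, 2 to 3 rose and 0 to 2 fell. Among those raised was ANGPTL2, a secreted factor that supports blood stem cells in culture, which rose by 1.58 (adjusted p = 0.00403). Genes of cell division did not pass. None of 54 cell cycle genes was called in either direction, although 46 of them had a negative change, with a median of -0.21, and MKI67, the proliferation antigen, had 159.8 and 116 CPM at d100 and 188 and 123 CPM at d120, against 225 and 118 CPM at d50 and 219 and 112 CPM at d65.

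Many macrophage genes rose. Of 29 tested, 13 rose and none fell, with a median log2 change of 0.80 and a summed level of 1510.0 to 1880.0 CPM in late and 1060.0 to 1330.0 CPM in early libraries. The count was 6 without d120 replicate 1, 5 without d100 replicate 1, 5 without d65 replicate 1 and 5 without d50 replicate 1. CD5L, a protein secreted by tissue macrophages, had 2.48 and 2.01 CPM at d100 and 8.66 and 2.46 CPM at d120, against 0.0489 and 0 CPM at d50 and 0.62 and 0.157 CPM at d65, with 0.817 and 1.34 CPM at d80 (log2 fold change 5.03 ± 0.71 SE, adjusted p = 0.000711). C1QA, a chain of the complement starter C1q that macrophages make, had 162 and 113 CPM at d100 and 173 and 160.0 CPM at d120, against 50.8 and 58.5 CPM at d50 and 67.95 and 108 CPM at d65 (log2 fold change 1.13 ± 0.20 SE, adjusted p = 0.00234). The protease CTSS was at 55.98 to 60.4 CPM in late and 31.7 to 35.3 CPM in early libraries (log2 fold change 0.8 ± 0.16 SE, adjusted p = 0.00808). CD74, the invariant chain of MHC class II, had 69.6 and 108 CPM at d100 and 58.7 and 114 CPM at d120, against 17.5 and 18.7 CPM at d50 and 20.2 and 25.8 CPM at d65 (log2 fold change 2.1 ± 0.29 SE, adjusted p = 0.000431), with no overlap. The haemoglobin scavenger receptor CD163, expressed by the same cells, did not follow, at 58.8 to 65.9 CPM in late and 59.6 to 85.2 CPM in early libraries (log2 fold change -0.28 ± 0.26 SE).

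Of 39 antigen presentation and interferon response genes 13 rose, none fell and 37 had a positive change. The count was 8 without d120 replicate 1, 8 without d120 replicate 2, 7 without d100 replicate 1, 4 without d65 replicate 1 and 8 without d50 replicate 2, and 9 with library totals in place of TMM. CXCL9, a chemokine induced by interferon gamma, was at 0.682 to 8.01 CPM in late and 0.062 to 0.987 CPM in early libraries (log2 fold change 3.4 ± 0.64 SE, adjusted p = 0.00416). RSAD2 and IFI6, both induced by type I interferon, rose by 2.50 and 1.83 on the log2 scale (adjusted p = 0.00711 and 0.003). B2M, the light chain of MHC class I, rose by 1.23 and lost its call without d65 replicate 1 (0.061). Of 28 lymphocyte genes 3 rose. CR2, the complement receptor of B cells and follicular dendritic cells, had 3.77 and 3.3 CPM at d100 and 10.9 and 6.43 CPM at d120, against 0 and 0 CPM at d50 and 0.365 and 0.583 CPM at d65, with 0.159 and 0.183 CPM at d80 (log2 fold change 7.34 ± 1.00 SE, adjusted p = 0.000546). The T and NK cell adhesion molecule CD2 was at 1.82 to 6.14 CPM in late and 0.407 to 0.62 CPM in early libraries (log2 fold change 2.77, adjusted p = 0.00571). The B cell gene CD79A had a negative change that did not pass.

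Sinusoidal and matrix genes were raised in part. Of 33 endothelial genes 4 rose and none fell, 2 of them in every fit with 1 library left out. CLEC4G, a lectin of liver sinusoidal endothelium, had 42.5 and 38.6 CPM at d100 and 80.5 and 78.4 CPM at d120, against 3.91 and 4.73 CPM at d50 and 5.78 and 16.1 CPM at d65, with 25.4 and 19.8 CPM at d80 (log2 fold change 3.05 ± 0.28 SE, adjusted p = 7.99e-06). F8, described with the clotting factors, was the other. The calls of STAB1 and DNASE1L3, a scavenger receptor and a nuclease of the same cells, were lost without d120 replicate 1 (0.0722), d120 replicate 2 (0.094), d100 replicate 1 (0.0661), d100 replicate 2 (0.108), d65 replicate 1 (0.152) or d50 replicate 1 (0.125) for STAB1 and without d120 replicate 1 (0.0502), d100 replicate 1 (0.0577), d65 replicate 1 (0.0632) or d50 replicate 1 (0.0702) for DNASE1L3. Of 33 stellate cell and fibroblast genes 7 rose and 1 fell, and the raised count was 2 without d120 replicate 2, 3 without d100 replicate 2, 2 without d65 replicate 1 and 4 without d50 replicate 1. The matrix protein dermatopontin (DPT) was at 6.83 to 16.2 CPM in late and 1.24 to 3.81 CPM in early libraries (log2 fold change 2.22 ± 0.38 SE, adjusted p = 0.00221), and desmin (DES), the intermediate filament of stellate and muscle cells, at 8.99 to 16.7 CPM in late and 2.77 to 8.12 CPM in early libraries (log2 fold change 1.6 ± 0.29 SE, adjusted p = 0.00288). The summed level of skeletal muscle markers, which include DES, was 20.8 to 29.1 CPM in late and 11.1 to 31.7 CPM in early libraries, and its part in the change of DES was not tested.

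Of 49 extracellular matrix genes 10 rose and 2 fell. The raised count was 3 without d120 replicate 2, 2 without d100 replicate 2, 6 without d65 replicate 1 and 4 without d50 replicate 2, and 3 with library totals in place of TMM. ADAMTS2, the protease that trims procollagen, had 11.9 and 17.2 CPM at d100 and 12.4 and 15.8 CPM at d120, against 2.98 and 2.69 CPM at d50 and 4.69 and 3.88 CPM at d65 (log2 fold change 2.03 ± 0.23 SE, adjusted p = 6.54e-05), and the elastic fibre protein EMILIN1 rose by 0.90 (adjusted p = 0.00387); both stayed past the threshold with any 1 library left out. COL16A1, a fibril-associated collagen, fell, with 32.6 and 31.2 CPM at d100 and 13.2 and 10.1 CPM at d120, against 63.95 and 36.5 CPM at d50 and 61.1 and 54.1 CPM at d65 (log2 fold change -1.48 ± 0.21 SE, adjusted p = 0.000558). Of 32 cholangiocyte genes, KRT19 alone passed, where 3.96% of all genes tested were called. KRT19 (log2 fold change -1.43 ± 0.36 SE, adjusted p = 0.0315) lost its call without d120 replicate 1 (0.118), d120 replicate 2 (0.083), d100 replicate 1 (0.0694), d100 replicate 2 (0.147), d65 replicate 2 (0.0869) or d50 replicate 2 (0.0882). The biliary keratin KRT7 was at 2.39 to 8.96 CPM in late and 2.23 to 4.15 CPM in early libraries and the transcription factor SOX9 at 3.52 to 10.4 CPM in late and 4.35 to 5.75 CPM in early libraries, both with overlapping groups.

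Several basic functions showed no called gene. None of 75 cytosolic ribosomal protein genes, 45 nuclear genes of mitochondrial respiration and 25 genes of the unfolded protein response passed in edgeR, with median log2 changes of 0.06, -0.08 and 0.08. Over all genes, 2986 had an unadjusted p under 0.05 in edgeR. A pair of genes had levels that did not follow age. NPM1, a nucleolar protein, had 3.27 and 2.44 CPM at d100 and 52.8 and 44.1 CPM at d120, against 66.3 and 102 CPM at d50 and 3.19 and 3.27 CPM at d65, and 4.68 and 4.84 CPM at d80, high at both ends of the series and low between. RPS3A ran from 0.339 CPM in a d120 library to 941 CPM in a d100 library, with high and low values within d50, d65 and d120. Both were chosen after their values were seen, and how near copies of these genes were counted is not given in the sources used here.

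For most called genes the d80 mean fell between the early and late means. This held for 404 of the 447 raised genes and 190 of the 206 lowered genes. Called genes were picked for a gap between those 2 means, which by itself favours a d80 mean between them. The share over all genes tested was not computed. On a log2 scale the median called gene had covered 0.501 of its rise and 0.4575 of its decline by d80. Of the called genes, 233 raised and 90 lowered ones moved in 1 direction at all 4 steps between days. The gap for which they were picked favours such steps too, and their share over all genes tested was not computed. Against the early libraries, d80 had 19 genes higher (0.115%) and 1 lower (0.00606%), 0.121% of those tested in edgeR. The 19 included 6 genes of the complement list (C1R, C2, C3, C4A, C9 and CFB), CFHR2, CP, FGL1, AQP9, SULT2A1 and CLEC4G. CFHR2 had reached 60.7 and 75.8 CPM by then (log2 fold change 2.69 ± 0.24 SE, adjusted p = 3.6e-05 for d80 over early). The raised count was 2 without d80 replicate 1, 5 without d65 replicate 1, 7 without d50 replicate 1, 9 without d80 replicate 2 and 12 without d50 replicate 2. The lowered gene was NPM1. Between late livers and d80, 1 gene was higher (0.00606%) and 4 were lower (0.0242%), 0.0303% in all. PLA2G2D, a secreted phospholipase, was the raised one, with 3.16 and 17.03 CPM at d100 and 15.9 and 19.5 CPM at d120, against 0.212 and 0.31 CPM at d50 and 2.88 and 1.59 CPM at d65, and 0.717 and 0.508 CPM at d80. PF4, COL16A1, MRAS and LOC105609898 were the lowered ones. MRAS, a Ras-related GTPase, had 30.6 and 26.6 CPM at d100 and 14.7 and 13.8 CPM at d120, against 57.2 and 59.4 CPM at d50 and 60.9 and 42.04 CPM at d65, and 61.3 and 51.6 CPM at d80. Without d120 replicate 1, d120 replicate 2, d100 replicate 2 or d80 replicate 2 no gene was higher, and without d120 replicate 2, either d100 library or either d80 library 1 was lower.

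The same comparison was made in CF livers of the same days, which share no library with the WT comparison. In the labels, however, the donor number of WT d65 replicate 2 is also on a CF d100 library. Late CF livers had 1322 genes higher (8.01%) and 999 lower (6.05%) than early CF livers. Of genes raised in WT, 349 were also raised in CF, 26.4% of those raised in CF and 78.1% of those raised in WT. Of genes lowered in WT, 103 were also lowered in CF, 10.3% of those in CF and 50% of those in WT. The sign was shared for 440 of the 447 and 182 of the 206. How often the sign was shared over all genes tested was not computed. There was 1 gene called in opposite directions. That gene was LLGL2, a cell polarity protein, with log2 changes of 0.61 in CF and -0.66 in WT. Its WT call was lost without d120 replicate 1 (0.0795), d120 replicate 2 (0.119), d100 replicate 1 (0.0775), d100 replicate 2 (0.126), d65 replicate 1 (0.0867) or d50 replicate 1 (0.135). Complement had 22 of 24 genes raised in CF and 17 in WT, and the megakaryocyte list had 10 of 19 lowered in CF and 8 in WT. C3 was at 1797 to 3047 CPM in late and 292 to 672 CPM in early CF livers, and AFP at 777 to 11730.2 and 32009 to 47447 CPM.

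**Figure D5:**
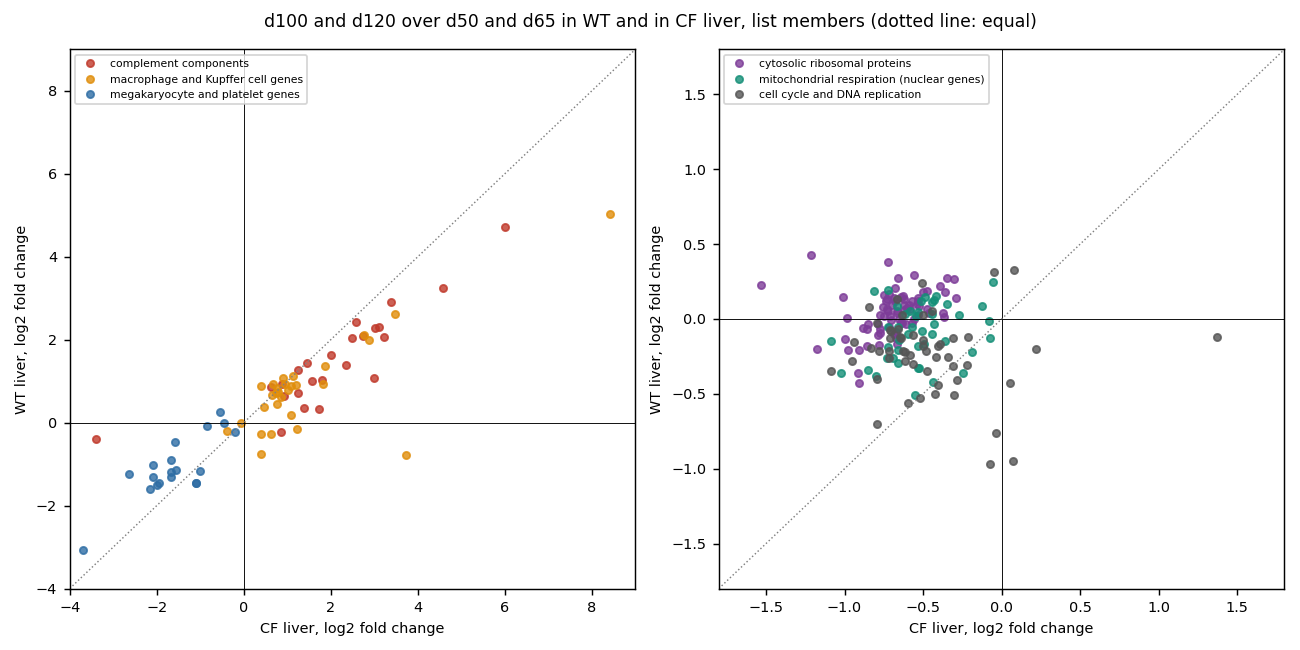
Log2 fold change of late over early livers in CF (x axis) and in WT (y axis) for tested members of 6 gene lists, with a dotted line where both are equal and a different scale in each panel. Complement and macrophage genes lie mostly at the upper right and megakaryocyte genes at the lower left, whereas ribosomal protein and mitochondrial genes lie left of the dotted line, with medians of -0.67 and -0.53 in CF and 0.06 and -0.08 in WT. With any 1 WT library left out, these WT medians ran from -0.171 to 0.429 and from -0.235 to 0.172. No ribosomal protein or mitochondrial gene passed the test of the difference between the genotypes.

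The difference between the genotypes' changes passed for 4 genes (0.0242%), all with the more positive change in CF. C5, a terminal complement component, changed by 2.99 in CF and 1.06 in WT (difference 1.93 ± 0.30 SE, adjusted p = 0.0268). GDA, guanine deaminase, changed by 5.39 and -0.78 (difference 6.17 ± 0.96 SE, adjusted p = 0.0268). Its levels were near the floor, at 1.52 to 2.32 CPM in late and 0 to 0.901 CPM in early CF livers. In WT it was at 0.35 to 1.04 CPM in late and 0.971 to 1.61 CPM in early livers. The gene listed as NESP55, a neuroendocrine secretory protein made from an imprinted locus, changed by 4.36 and -1.51 (adjusted p = 0.0268). NESP55 too was low, at 0.643 to 2.65 CPM in late and 0 to 1.38 CPM in early CF livers. In WT it was at 0.72 to 1.16 CPM in late and 2.07 to 3.8 CPM in early livers. LOC105609898 changed by 0.38 and -2.69 (adjusted p = 0.0104). None passed with the more positive change in WT in edgeR. Without adjustment, 2074 genes had a p under 0.05, and DESeq2 called 185 genes in the CF direction and 47 in the other. The 4 fell to between 0 and 2 genes in most fits with 1 library left out: 0 without d120 replicate 2 or d100 replicate 2 of WT or d120 replicate 2 of CF, 1 without d100 replicate 1, d65 replicate 1 or d50 replicate 1 of WT or d120 replicate 1, d100 replicate 1 or d50 replicate 1 of CF, and 2 without d120 replicate 1 of WT or d65 replicate 2 or d50 replicate 2 of CF. It was 7 without CF d65 replicate 1.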

How the data were processed

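Bulk RNA-seq values of 24 liver libraries (12 WT and 12 CF) were used, as estimated counts per gene, the unit in which the authors deposited them; a mention of TPM in the table's name did not match column totals that differ between libraries. The submitters' processing notes name Salmon 1.9.0 and 1.10.1, STAR 2.7.9a, DESeq2, limma and edgeR, without roles. Not given in the sources used here are the build, the annotation and any length scaling, and no coordinates or sequences are printed. A row without a gene name, 0.434 to 1.04% of counts in WT fetal libraries, was left out of 22981 rows, and 127 LOC numbers were given a symbol from RefSeq's ARS-UI_Ramb_v3.0 gene table.

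Counts were rounded and fitted in edgeR 4.0.16 (R 4.3.3; TMM, filterByExpr with a minimum count of 10, quasi-likelihood, 1 mean per genotype and stage over 24 libraries). Tests were two-sided, with Benjamini-Hochberg adjustment over 16507 genes. SE is the log2 change over the square root of its F. Levels are CPM with TMM factors. No scaling by transcript length was added here, and they compare libraries, not genes. The code was tested on simulated counts. Alternatives used DESeq2 1.42.0, limma 3.58.1, other filters, day pairs and left-out libraries. Samples, members and gene lists were chosen with earlier results of these data known. Genes named are the 10 largest changes per direction (called, symbol, mean of at least 1 CPM, same sign in 4 day pairs), up to 6 members per list by p, and others named in the text after their values were seen; some genes are not reported here. Nothing states whether replicates are separate pregnancies. The p-values rest on the spread between libraries of 1 genotype and stage, pooled over the 24 libraries. They do not measure the spread between days within the late or the early group, or between pregnancies.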

Additional observations from a re-analysis of the deposited data

Results flagged for a closer look

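In 126 sets of 4 late or 4 early WT libraries, the highest or lowest library was checked for a gap to its nearest neighbour that exceeded Dixon's 95% critical share of the set's range; 9 were found, and chance gives about 1 in 20. Among late libraries d120 replicate 1 stood apart 3 times, with 8.66 CPM of CD5L, a summed 867 CPM of cholangiocyte genes and 1830 CPM of early response genes. The d100 replicate 1 library stood apart at 3400 CPM for fatty acid oxidation. Among early libraries, d50 replicate 1 had 17.0 CPM of WFIKKN1, d50 replicate 2 had 15.7 CPM of SLC30A2 and a summed 457 CPM of the insulin-like growth factor axis, d65 replicate 1 had 1390 CPM of bile and hepatocyte transporters, and d65 replicate 2 had 31.7 CPM of skeletal muscle markers. The calls of CD5L, WFIKKN1 and SLC30A2 held without any 1 library.

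Late against early changes differed between CF and WT by the test of the difference for C5 (1.93 on the log2 scale, CF minus WT), GDA (6.17), LOC105609898 (3.07) and NESP55 (5.87). The lowest early CF value was 0 CPM for GDA and for NESP55.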

How the results depend on the processing

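Signs of the named genes past the threshold held under the alternatives run, except that UGT1A6 had a log2 change of -0.13 between d100 and d65 alone. NPM1, which was not called in the main test, passed with a change of 3.91 between d120 and d65 alone (edgeR, adjusted p = 4.81e-06). Its main change was negative. For named genes not past the threshold, sign changes that did not pass were not counted. Of the named genes past the threshold, 84 stayed past it in each of 8 fits that left out 1 library and 64 did not. Raised and lowered genes, late against early, numbered 447 and 206. They were 766 and 521 by DESeq2's Wald test, 245 and 111 with 8 libraries and 1 mean per side, 0 and 0 with 1 unit per donor-number stem, 1 and 1 between d100 and d65, 75 and 55 between d120 and d65, 199 and 53 between d100 and d50, and 72 and 24 against a log2 change of 1 (glmTreat). A slope in gestation day lowered 429. Leaving out 1 library gave 223 to 412 raised and 87 to 332 lowered, and leaving out both d50 replicate 1 and d65 replicate 2, an alternative chosen after the data were seen, gave 268 and 133.

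For d80 against early, 19 raised and 1 lowered became 77 and 24 by DESeq2's Wald test and 31 raised without a filter. With 1 library left out they were 2 to 25 and 0 to 4, and 4 were lowered with both doubted libraries out. For late against d80, 1 raised and 4 lowered became 68 and 47 by DESeq2, 12 and 10 without a filter, 2 raised with DESeq2 size factors, and 0 to 1 and 1 to 3 with 1 library left out. For CF minus WT, 4 and 0 became 185 and 47 by DESeq2, 16 and 2 without a filter, 0 to 7 and 0 to 1 with 1 library left out, and 2 raised with both doubted libraries out. The cause of these shifts was not tested. No paired analysis was possible because replicate numbers follow accession order and WT liver libraries of different days carry different donor numbers.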
